A study of Mus musculus with 5 samples.

Results

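The miR-26 family was examined in dendritic cells grown from mouse bone marrow (BMDCs) and treated with flagellin or kept in medium alone. Its members were taken by name, as every array entry for miR-26a or miR-26b, and 5 of the 1122 mouse miRNAs on the array met this rule: the guide strands mmu-miR-26a-5p and mmu-miR-26b-5p and the opposite arms miR-26a-1-3p, miR-26a-2-3p and miR-26b-3p. Total RNA of 5 BMDC samples was hybridized to 1-colour Agilent arrays, 3 from cells stimulated for 24 h with 100 ng/ml flagellin (FliC), the bacterial protein recognized by TLR5, and 2 from mock cells incubated in medium for 24 h. Both groups came from the bone marrow of young C3H/HeJ mice, a strain whose TLR4 is defective, and were grown with rmGM-CSF and rmIL-4 and enriched for CD11c+ cells on magnetic beads before treatment. The labels do not say whether replicates were separate cultures or animals, so the p-values measure only the spread between these samples, which may be technical.

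miRNAs are cut from hairpin precursors whose arms can each become a mature strand, and the strand that is loaded into Argonaute, the guide, pairs with its target mRNAs mainly through the seed at its 5' end. The miR-26 genes lie within genes of small C-terminal domain phosphatases, enzymes that act on RNA polymerase II and on the retinoblastoma protein. miR-26a and miR-26b are made in most tissues, blood cells included, and the Polycomb methyltransferase Ezh2 is among their known targets.

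The mature sequences of RefSeq (GRCm38.p6), matched by name for all 5 members, are printed because shared seeds and single base differences decide what the probes can tell apart. Capitals mark the seed, bases 2 to 8 from the 5' end.
miR-26a-5p: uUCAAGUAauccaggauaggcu
miR-26b-5p: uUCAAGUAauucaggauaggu
miR-26a-1-3p: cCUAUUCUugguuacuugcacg
miR-26a-2-3p: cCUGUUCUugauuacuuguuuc
miR-26b-3p: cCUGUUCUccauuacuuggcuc
The guides have the same seed, which no other mature mouse miRNA of the RefSeq table has. Counted from the 5' end, they differ by C11U and C21U over 21 bases, with the miR-26a-5p base first, and miR-26a-5p is 1 base longer. The 3p arms of miR-26a-2 and miR-26b share a seed, from which that of miR-26a-1-3p differs by A4G. The substitutions over the whole strand number 4 between miR-26a-2-3p and miR-26b-3p, 6 between miR-26a-1-3p and miR-26a-2-3p and 8 between miR-26a-1-3p and miR-26b-3p.

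miR-26a-5p is encoded by 2 loci, Mir26a-1 within Ctdspl on chromosome 9 and Mir26a-2 within Ctdsp2 on chromosome 10, and miR-26b-5p by Mir26b within Ctdsp1 on chromosome 1, in the RefSeq annotation of GRCm38. The hairpins are shown with both arms in capitals, since the 3p arm is the part that names the locus.
Mir26a-1: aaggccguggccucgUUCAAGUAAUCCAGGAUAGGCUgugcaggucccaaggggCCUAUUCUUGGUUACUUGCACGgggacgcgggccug
Mir26a-2: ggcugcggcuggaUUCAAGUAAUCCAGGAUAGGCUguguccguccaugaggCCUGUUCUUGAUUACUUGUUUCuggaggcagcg
Mir26b: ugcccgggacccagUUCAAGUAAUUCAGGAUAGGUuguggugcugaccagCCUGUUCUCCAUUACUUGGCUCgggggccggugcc
The arms are separated by 17, 16 and 15 bases in this order. The 5p arm of Mir26a-1 and Mir26a-2 is the same sequence, so its signal cannot be divided between the loci.

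The array carries 12 probes for the family, each the exact complement of the 3' part of its strand. The probes of the guides are printed because their lengths enter the results below, with capitals for bases that pair with the seed.
miR-26a-5p, shorter probe: agcctatcctggatT
miR-26a-5p, longer probe: agcctatcctggatTA
miR-26b-5p, shorter probe: acctatcctgaatTACTTG
miR-26b-5p, longer probe: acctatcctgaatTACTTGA
The probes of miR-26a-5p, 15 and 16 nt long, read bases 8 to 22 and 7 to 22 and so 1 and 2 of the 7 seed bases, whereas those of miR-26b-5p, 19 and 20 nt long, read bases 3 to 21 and 2 to 21 and so 6 and 7. Both substitutions between the guides lie in the stretch that all 4 probes read. The deposited files place the 15 nt target of miR-26a-5p at chr9:118940936-118940950 and chr10:126432606-126432620 of mm9, the build in their headers, and the 19 nt target of miR-26b-5p at chr1:74440900-74440918. The longest stretch that a miR-26a-5p probe has in common with a probe of another miRNA was 9 nt, with miR-26b-5p among others, and for miR-26b-5p it was 10 nt, with miR-876-3p. Binding of one guide to the probes of the other was not tested.

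Both guide strands were measured well above background on every array, and none of the 3 opposite arms was detected on any. All 400 spots of the 4 guide probes over the 5 arrays were well above background. The total gene signal, which sums the probes of a miRNA whose signal exceeds 3 times its error, was 1754, 1721 and 1204 for mmu-miR-26a-5p on flagellin arrays 1 to 3 and 1609 and 1318 on medium arrays 1 and 2. For mmu-miR-26b-5p the flagellin arrays gave 781, 764 and 494, and the medium arrays 679 and 621. Flagellin array 3 was the dimmest for both guides, and before scaling the groups overlapped. The error that Feature Extraction gives each of these signals lay between 7.37% and 7.52% of the signal. The coefficient of variation between the spots of 1 guide probe, outliers left out, ran from 2.42% to 17.1%.

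**Figure D1:**
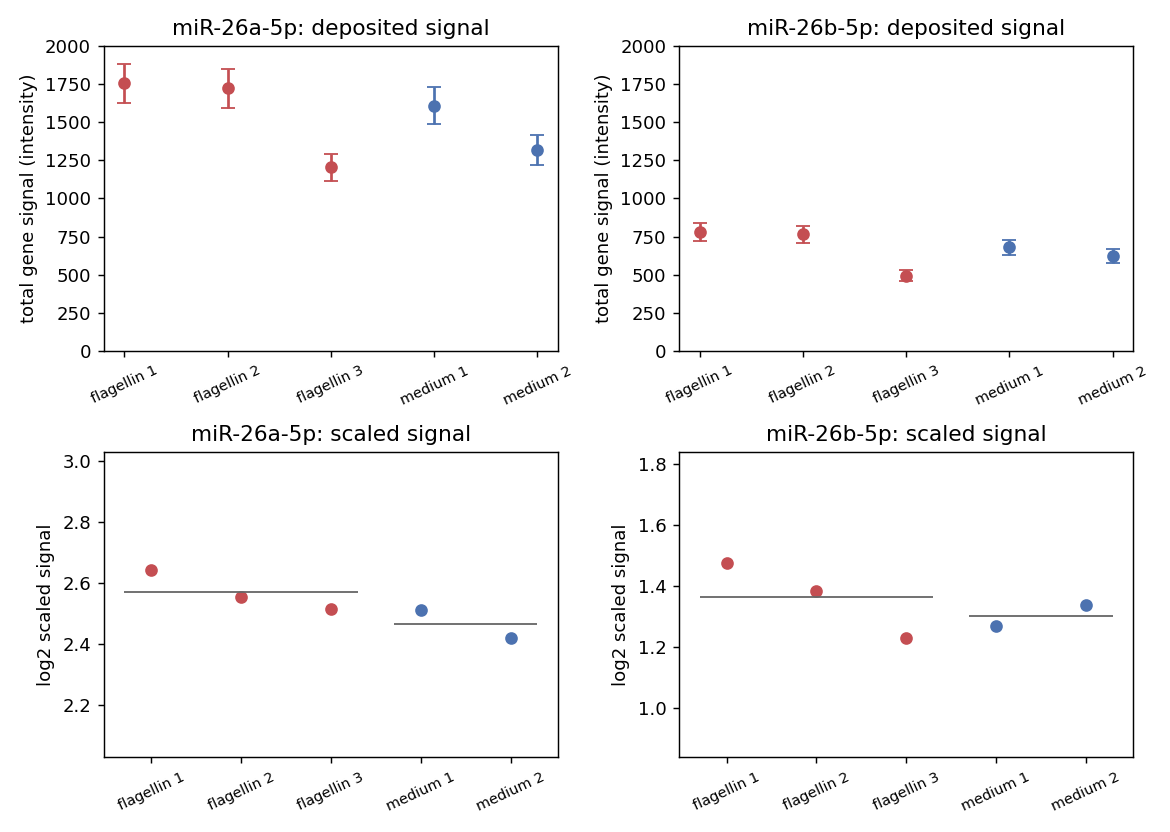
Signals of miR-26a-5p and miR-26b-5p on each array. The upper panels show the total gene signal in intensity units with the Feature Extraction error as bars, and the lower panels the log2 scaled signal with a line at each group's mean; flagellin array 3 is the dimmest in the upper panels, while after scaling all 5 values of miR-26a-5p lie between 2.42 and 2.64 and those of miR-26b-5p between 1.23 and 1.47.

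By total gene signal, miR-26a-5p held place 29, 31 and 28 among the 1122 mouse miRNAs on the flagellin arrays and place 30 and 32 on the medium arrays. miR-26b-5p held place 48, 50 and 51 with flagellin and 49 and 50 with medium. These places hardly moved from array to array, and both guides stood in the upper part of the 277 miRNAs detected on all 5 arrays. miR-26a-5p made up 0.643% to 0.757% of the summed signal of the mouse miRNAs of an array, and miR-26b-5p 0.272% to 0.337%. The signals of the guides come from different probes, so the higher signal of miR-26a-5p is not a ratio of molecules.

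Ordered by mean signal over the 5 arrays, miR-26a-5p, at place 30, stood between miR-15a-5p and miR-103-3p, guides of other widely expressed families. miR-15a-5p was above it on 3 arrays and miR-103-3p on 2, so neither order held on all arrays. miR-26b-5p, at place 50, stood between miR-155-5p, a miRNA induced by many TLR ligands, and miR-3096b-3p. miR-155-5p was above it on the 3 flagellin arrays and below it on both medium arrays. miR-3096b-3p was above it on 2 arrays.

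**Figure D2:**
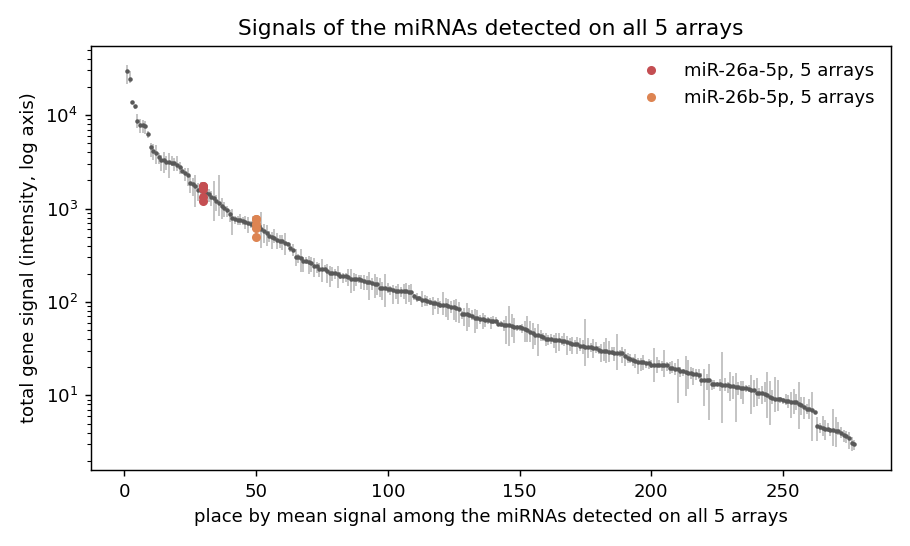
Total gene signal (log axis) of the 277 miRNAs detected on all 5 arrays against their place by mean signal. Grey dots are means and grey lines the range over the 5 arrays; the coloured points are the 5 values of each miR-26 guide, which lie at places 30 and 50.

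The 3p arms were read by 8 probes, which gave 40 pairs of probe and array, none past the limit of 3 errors. The signals of miR-26a-1-3p, with 2 probes of 15 and 16 nt, lay between −0.797 and 0.119, and 1 of its 10 values was above 0. Those of miR-26a-2-3p, with probes of 19 and 20 nt, lay between 0.000814 and 0.632. At 20 spots a probe, the limit for both was between 4.39 and 5.37. miR-26b-3p had 4 probes of 17 to 20 nt with 10 spots each, a limit between 2.19 and 2.72, and signals between −0.601 and 1.41. Its longest probe came closest, at 0.887, 1.41 and 0.686 after flagellin and 1.26 and 1.27 in medium. The highest ratio of signal to error among the 3p probes was 1.69, for this probe on medium array 1. Since the 3p arms were under the limit in both groups, no fold was calculated and none entered the test across miRNAs, and with them no signal specific to one miR-26a locus was available.

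**Figure D3:**
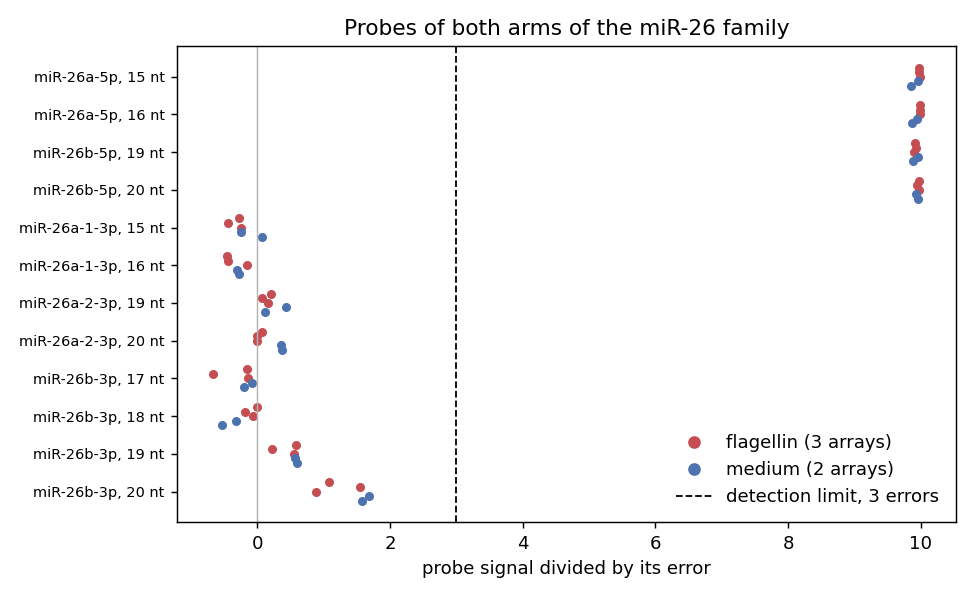
Signal divided by its error for the 12 probes of the miR-26 family on the 3 flagellin and 2 medium arrays. The dashed line is the detection limit of 3 errors; all values of the 4 guide probes lie between 9.86 and 9.99, and no value of the 8 probes of the 3p arms is above 1.69.

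Whether flagellin changed the guides was asked after scaling. Signals were expressed relative to the 75th percentile of their array, taken over the 277 miRNAs, on the log2 scale, and the 307 miRNAs detected on at least 2 arrays were compared in limma with Benjamini-Hochberg adjustment. Neither guide differed between flagellin and medium beyond the spread between arrays. The log2 scaled signal of miR-26a-5p was 2.64, 2.55 and 2.52 after flagellin against 2.51 and 2.42 in medium. All 3 flagellin values were above both medium values, by a margin smaller than the spread within either group. Of the 307 miRNAs, 11.4% had this pattern, and 8.79% had all flagellin values below both medium values. The means were 2.57 ± 0.065 (SD, n = 3) and 2.47 ± 0.064 (SD, n = 2), a log2 difference of 0.10 ± 0.081 (SE), for which limma gave an adjusted p = 0.859. This corresponds to 1.08-fold, with a 95% confidence interval from 0.927 to 1.25. The log2 difference was 0.29 with the 75th percentile taken over all 1122 mouse miRNAs, which moved the median of all miRNAs to 0.19, and 0.059 without medium array 2.

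For miR-26b-5p the log2 scaled signal was 1.47, 1.38 and 1.23 after flagellin against 1.27 and 1.34 in medium. The groups overlapped, with flagellin array 3 below both medium arrays. The means were 1.36 ± 0.12 (SD, n = 3) and 1.30 ± 0.048 (SD, n = 2), and the log2 difference of 0.061 ± 0.10 (SE), with an adjusted p = 0.891 from limma, became −0.016 with quantile normalization and −0.0040 once a trend on probe length was taken out. The fold was 1.04, with a 95% confidence interval from 0.866 to 1.26. For both guides the interval excluded the change of more than 2-fold that the methods set as a threshold. The interval rests on the spread between these arrays, which may be technical, so it does not cover other cultures or animals. In these bulk samples, a change in the number of cells that hold a miRNA and a change in its amount per cell cannot be told apart.

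Among the 307 miRNAs, limma called 0.651% after adjustment at 0.05, and 5.86% had an unadjusted p under 0.05. The called miRNAs were miR-466i-3p and miR-5112, neither a family member, and both were detected on the medium arrays only. All 3 flagellin values of each had been raised to the floor, with an SD of 0. Their p-values therefore rest on no measured spread among the flagellin arrays. Requiring detection on all 5 arrays removed both from the test. By quantitative PCR, the paper found miR-5112 lower after flagellin but little change in miR-466i-3p, and proposes that the array may give false positives. The unadjusted p was smaller than that of miR-26a-5p for 78 miRNAs and smaller than that of miR-26b-5p for 196. Its log2 difference was exceeded by 71 miRNAs in the case of miR-26a-5p and by 111 in that of miR-26b-5p.

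The guides were also compared with each other through the log2 difference of miR-26a-5p and miR-26b-5p within each array, which needs no scaling. It was 1.17, 1.17 and 1.29 after flagellin against 1.24 and 1.09 in medium. The highest value belonged to flagellin array 3 and the lowest to medium array 2, and the groups overlapped. The means were 1.21 ± 0.067 (SD, n = 3) and 1.16 ± 0.11 (SD, n = 2). Their difference of 0.044 gave p = 0.6 in the two-sided exact permutation test, whose smallest p with 3 arrays against 2 is 0.1, and was smaller than the SD within either group. It was −0.036 without medium array 2.

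**Figure D4:**
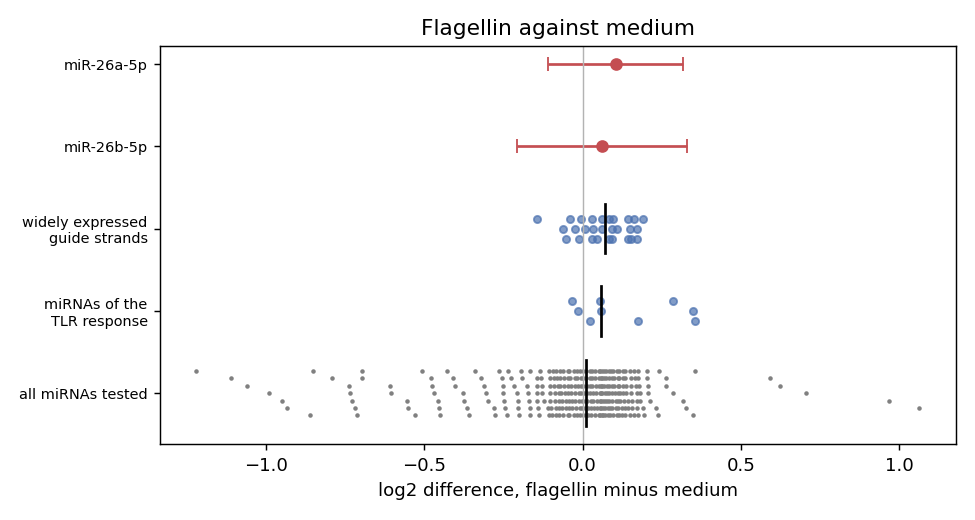
Log2 difference, flagellin minus medium, in the scaled signals. The guides are shown with 95% confidence intervals, the 28 widely expressed guide strands, the 9 tested miRNAs of the TLR list and all 307 miRNAs tested as points, with a black line at the median of each set; both guides lie within the range of the widely expressed guide strands, and both intervals include 0.

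Across the 5 arrays the scaled signals of the guides varied little. The SD over all 5 was 0.080 for miR-26a-5p, with 13.7% of the 277 miRNAs varying less, and 0.097 for miR-26b-5p, with 23.5% varying less, where the median over the 277 was 0.134. Across the 5 arrays the scaled signals of the guides had a Pearson's r of 0.63, and miR-26b-5p ranked 59 of 276 in likeness to miR-26a-5p. The miRNAs most like miR-26a-5p by this measure were miR-16-5p (r = 0.93), miR-146b-5p (0.92) and miR-194-5p (0.91), and those most like miR-26b-5p were miR-185-5p (0.99), miR-338-3p (0.98) and miR-18a-5p (0.98). With only 5 arrays, which share a slide, these are descriptions chosen as the highest among 276.

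Within each guide, the probes that differ by 1 nt gave unlike differences between flagellin and medium. The 15 nt probe of miR-26a-5p read 617, 600 and 424 on the flagellin arrays, against 581 and 477 on the medium arrays. The 16 nt probe read 1137, 1121 and 780 after flagellin against 1028 and 840 in medium. After scaling, the log2 difference was 0.061 for the shorter and 0.13 for the longer probe (two-sided exact permutation p = 0.6 and 0.2). The 19 nt probe of miR-26b-5p read 256, 259 and 161 after flagellin against 242 and 212 in medium. Its 20 nt probe read 526, 505 and 333 after flagellin against 437 and 409 in medium. The log2 difference was −0.017 for the shorter, which turned to 0.061 without flagellin array 3, and 0.10 for the longer probe (two-sided exact permutation p = 1 and 0.4). For the 16 nt probe of miR-26a-5p all 3 scaled flagellin values, 2.02, 1.94 and 1.89 on the log2 scale, lay above both medium values of 1.87 and 1.77. No exact test of a probe reached its smallest p of 0.1, and for both guides the longer probe had the higher difference.

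The ratio of the longer to the shorter probe does not depend on scaling. For miR-26a-5p it was 1.84, 1.87 and 1.84 after flagellin against 1.77 and 1.76 in medium, and for miR-26b-5p 2.06, 1.95 and 2.07 against 1.81 and 1.93. In both guides all 3 flagellin ratios were above both medium ratios. The log2 difference of this ratio was 0.068 for miR-26a-5p (p = 0.1) and 0.12 for miR-26b-5p (p = 0.2) in two-sided exact permutation tests, of a size with the differences of the miRNAs themselves. This comparison was chosen after the values of the probes were seen. Of the 183 miRNAs with a pair of detected probes that differ by 1 nt, 22.4% had all flagellin ratios above both medium ratios and 10.9% had them below. Over the 181 pairs outside the family the median log2 difference of the ratio was 0.016, with 107 above 0.

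**Figure D5:**
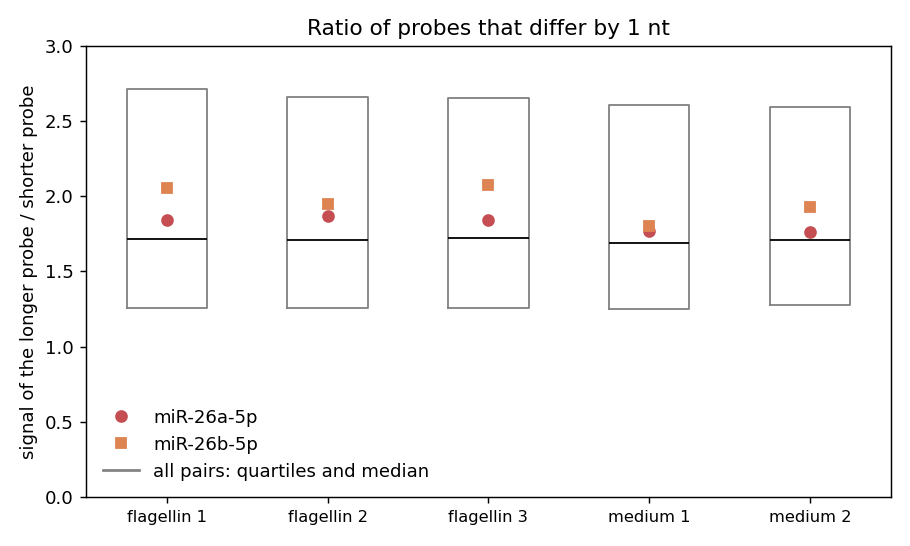
Signal of the longer probe divided by that of the shorter probe on each array, for miR-26a-5p, miR-26b-5p and all 183 miRNAs with 2 detected probes that differ by 1 nt. Boxes span the quartiles with a line at the median; both guides have lower ratios on the medium arrays than on the flagellin arrays, while the medians of all pairs stay between 1.69 and 1.72.

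Across the array, the median log2 difference was not the same in all classes of probe length. Of the 277 miRNAs, the 120 whose probes averaged 16 nt or less, the class of miR-26a-5p, had a median log2 difference of −0.046. It was 0.068 for the 78 between 16 and 18 nt and 0.038 for the 79 over 18 nt, the class of miR-26b-5p, so the medians did not rise steadily with length. Once a linear trend on probe length was subtracted within arrays, the log2 difference of miR-26a-5p was 0.12, and the difference of the guides 0.13 (exact permutation p = 0.3). Neither the differences between these classes nor their source was tested.

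The guides were set beside 28 other widely expressed guide strands, those of the let-7, miR-15 and miR-16, miR-23, miR-24, miR-27, miR-29, miR-30, miR-103 and miR-107 families and miR-191. All 28 were detected on all 5 arrays. In limma's test none had an adjusted or an unadjusted p under 0.05, and 21 had a log2 difference above 0, where 51.8% of all miRNAs tested did. Their differences ran from −0.14 to 0.19 with a median of 0.072, against a median of 0.0095 over the 307, and both miR-26 values lay inside that range. All flagellin values were above both medium values for 4 of the 28, where 11.4% of all miRNAs tested had this pattern, and below for 0, where 8.79% did. Of 12 miRNAs reported to respond to TLR ligands in myeloid cells, 9 were tested. Their median log2 difference was 0.057, limma called none at an adjusted p under 0.05, and 3 had an unadjusted p under 0.05, where 5.86% of all miRNAs tested did. All flagellin values were above both medium values for 4 of the 9 and below for 0, where 11.4% and 8.79% of all miRNAs tested were. The log2 difference of miR-155-5p was 0.35 (adjusted p = 0.65 in limma's test).

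The 4 miRNAs listed as myeloid and pan-haematopoietic markers, miR-223-3p, miR-142-3p, miR-142-5p and miR-21a-5p (listed as miR-21-5p on the array), were detected on every array. miR-21a-5p was also on the TLR list, so its signal is not specific to this list. Of the 17 markers of other lineages found on the array, 11 were detected on none, among them miR-122-5p, miR-124-3p and miR-150-5p, and 3 on all 5 arrays, the lymphoid marker miR-181a-5p at signals of 375 to 518, the muscle marker miR-206-3p at 14.8 to 19.1 and the endothelial marker miR-126-3p. The stromal markers summed to 53.4 on flagellin array 2 and to 5.99 or less on the other arrays, the endothelial markers to 29.2 there and to 12.7 or less elsewhere, and the erythroid markers to 17.1 there and 5.39 or less elsewhere. These sums rest on few members. Of the stromal markers only miR-199a-3p and miR-199a-5p were detected on any array. The same held for miR-126-3p alone among the endothelial and miR-451a alone among the erythroid markers. Without flagellin array 2 the log2 difference was 0.11 for miR-26a-5p and 0.051 for miR-26b-5p. All 5 arrays were on 1 slide, and since both medium arrays lay in a column of the slide without any from flagellin, slide column and treatment cannot be told apart. Both slide rows held both treatments, and with the row as a block the log2 difference was 0.11 for miR-26a-5p and 0.059 for miR-26b-5p.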

How the data were processed

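The authors labelled total RNA with Cy3, hybridized and scanned the arrays, and deposited intensity files from Agilent Feature Extraction 10.7.3.1, with spot, probe and total gene signals. They also deposited log2 values from GeneSpring, which for all 1122 mouse miRNAs differ from the log2 of the total gene signal by 1 constant on each array. The sum of the probes above 3 errors, or 0.1 where none passed, gave every one of 5895 total gene signals to within 0.001 of its size.

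Total gene signals were divided by the 75th percentile of each array (211 to 293), taken over the 277 mouse miRNAs detected throughout, raised to a common floor of 0.0121 and transformed to log2. The treatments were compared without covariates in limma (version 3.58.1, in R 4.3.3) over the 307 miRNAs detected on at least 2 arrays, with 3 residual degrees of freedom. Within-array differences and single probes were compared by exact permutation over 10 splits. Python 3.11.15 did the rest. The fit was tested on simulated data without a floor and with changes larger than those of the guides. That test does not cover small differences or values at the floor. The arrays detected between 292 and 317 mouse miRNAs, and the number of arrays limits the precision.

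The members and lists were chosen with earlier results of these data known. Members, the 3 miRNAs most like each guide, its neighbours in rank and the lists were named by rule. A listed name absent from the array was matched where all probes of 1 entry complemented its RefSeq sequence (miR-21a-5p and miR-451a), and miR-486-5p was not matched. Alternatives covered scaling, floor, filter, probe level values, test, blocks, probe length and leaving out each array.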

Additional observations from a re-analysis of the deposited data

How the results depend on the processing

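The adjusted p of miR-26a-5p and miR-26b-5p stayed above 0.05 under every alternative run, and the log2 difference of miR-26a-5p stayed above 0. Taking the 75th percentile over the 1122 mouse miRNAs, which moved the median of all miRNAs to 0.19, gave 0.29 for miR-26a-5p and 0.24 for miR-26b-5p. With the authors' values it was 0.11 and 0.067. Changing the floor, the filter or the test could not alter the differences of guides this far above the floor, which stayed at 0.10 and 0.061. The difference of miR-26b-5p reversed to −0.016 with quantile normalization and to −0.0040 once the probe length trend was subtracted. With each array left out it lay between 0.0044 and 0.13, that of miR-26a-5p between 0.059 and 0.15, and the difference between the guides between −0.036, reversed without medium replicate 2, and 0.12. The 19 nt probe of miR-26b-5p, at −0.017, lay between −0.066 and 0.061, reversed without flagellin replicate 3. The cause of these reversals was not tested.

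Limma called 2 of 307 miRNAs at an adjusted p under 0.05. This number was 4 with the authors' values, with the floor divided by 10 and with signals under 1 set to 1. The number was 1, miR-135a-1-3p, when detection on all 5 arrays was required and after subtracting the probe length trend. It was also 1, but miR-466i-3p, with no filter and with limma's trend option. No miRNA passed (0) without scaling, with that 75th percentile, quantile normalization, both probe level fits, no detection rule, the array row block and the replicate block, where 8, 14, 17, 17, 23, 17, 15 and 39 miRNAs had an unadjusted p under 0.05. Leaving out single arrays gave 0 to 1 (7 to 71 unadjusted), the 1 being miR-466i-3p without flagellin replicate 3. Where a lone medium array remained, its spread was taken from the flagellin arrays. The methods' t-test gave 2 adjusted and 14 unadjusted.

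Replicate numbers 1 and 2 occur in both groups. The deviations of same-numbered arrays from their group means correlated at −0.043 and −0.076 over 277 miRNAs. The deviations of the 2 medium arrays mirror each other, so these values cannot decide whether same-numbered arrays share a culture or animal. With the replicate block the log2 difference was 0.13 for miR-26a-5p and 0.13 for miR-26b-5p (adjusted p = 0.401 and 0.456 in limma's test). The difference between the guides was 0.0048. Replicate 3 has no medium array, so these differences are the same as those without flagellin replicate 3. No fold could be given for the 3p arms under any alternative.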
